A study of Mus musculus with 48 samples.

Results

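This report describes 6 genes of glucocorticoid signalling in epidermal stem cells of aged and young mice at 6 times of day: Nr3c1, the glucocorticoid receptor, and 5 genes that glucocorticoids induce, Fkbp5, Tsc22d3, Klf9, Sgk1 and Zbtb16. The genes were chosen by symbol, as the receptor and well-known genes that it induces. The choice was made with earlier results of these data known, so setting their counts against all tested genes is a description. For each gene the probe set (a group of probes for 1 transcript) whose mean was highest across the 48 arrays was read, out of 19 probe sets that carry exactly 1 of these 6 symbols. The 6 genes are among 17097 genes that could be named this way, and all 6 are among the 12823 genes tested. The aged mice were 102 to 116 weeks old and the young mice 8 weeks old. All were female, wild type and of strain C57B6/J, and each group of 1 age and 1 time held 4 mice. Times are zeitgeber times (ZT, hours counted from the daily time cue) of 0, 4, 8, 12, 16 and 20 h. Values are log2 signals of Affymetrix arrays, summarised per probe set with RMA, so that a difference of 1 is a 2-fold change.

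Glucocorticoids are adrenal steroid hormones whose blood level follows the time of day and rises with stress. The hormone binds the receptor Nr3c1 in the cytoplasm, where chaperones hold it, and the receptor then enters the nucleus and binds DNA elements near its target genes. Fkbp5 is a co-chaperone that lowers the receptor's affinity for hormone, and so forms a negative feedback loop. Tsc22d3, also called GILZ, restrains inflammatory transcription factors, and Klf9 and Zbtb16 (PLZF) are zinc finger transcription factors. Sgk1 is a kinase that regulates ion channels and transporters. In keratinocytes, glucocorticoids restrain proliferation and inflammation.

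Promoter windows running from 250 bases before to 50 bases after each transcription start were taken from RefSeq (build GRCm38.p6). The table holds 1 window for Fkbp5, 1 for Klf9, 3 for Tsc22d3 and 6 for Sgk1, and none for Zbtb16 or Nr3c1. Both strands were searched for the letters of a glucocorticoid receptor element (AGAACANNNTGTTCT, and its looser core GNACANNNTGTNC, which overlaps it), the clock factors' E-box (CACGTG) and the D-box (TTATGNAA). Among 32851 windows of all genes, 0.00913% held the full element, 0.475% its core, 7.15% the E-box and 3.39% the D-box. The Fkbp5 window, chr17:28486100-28486399 on the minus strand, held 1 E-box, from base -169 to base -164 relative to the start. The fifth Sgk1 window, chr10:21993640-21993939 on the plus strand, held a full element from base -189 to base -175 and an E-box from base -246. No listed letters were found in the windows of Klf9 and Tsc22d3 or in the other 5 of Sgk1. The 2 windows with matches are shown 5′ to 3′ with the matches in capitals, since they belong to the gene with the widest daily range and to one with a narrow range.
Fkbp5: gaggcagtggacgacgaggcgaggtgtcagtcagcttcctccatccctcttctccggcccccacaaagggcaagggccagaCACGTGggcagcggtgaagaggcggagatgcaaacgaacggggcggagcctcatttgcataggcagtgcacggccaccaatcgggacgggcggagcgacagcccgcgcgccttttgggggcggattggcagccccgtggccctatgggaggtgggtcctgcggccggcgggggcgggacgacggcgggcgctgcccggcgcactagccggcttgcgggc
Sgk1: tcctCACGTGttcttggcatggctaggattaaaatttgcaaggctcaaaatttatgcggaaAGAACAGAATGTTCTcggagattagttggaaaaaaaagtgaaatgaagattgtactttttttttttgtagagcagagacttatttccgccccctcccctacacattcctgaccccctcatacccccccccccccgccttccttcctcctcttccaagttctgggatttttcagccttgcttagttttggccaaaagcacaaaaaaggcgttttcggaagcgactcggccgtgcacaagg

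The arrays were alike in overall signal: their medians lay between 4.78 and 5.04 (log2), and no pair of arrays correlated below 0.963 over all probe sets. All 10 basal keratinocyte markers, among them Krt5 and Krt14, were above the limit for dim genes (a mean log2 of 3.96), with a mean over the list of 11.16 to 11.44 in every array. Of the markers of other cells, 11 of 12 suprabasal keratinocyte, 7 of 10 hair follicle bulge, 4 of 10 fibroblast, 5 of 10 Langerhans and myeloid cell, 3 of 8 endothelial and 7 of 8 T cell genes were above that limit. So were 2 of 6 melanocyte, 4 of 6 skeletal muscle, 1 of 4 measured adipocyte and 3 of 3 measured red blood cell genes. Cd34, a bulge stem cell marker, was below it, as were Ptprc, found on leukocytes, and Cd207, found on Langerhans cells. The labels do not say how the cells were purified.

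Fkbp5 had the widest daily range of the 6 genes, and the times of its high and low levels differed between the ages. Its level was lowest at ZT0 at both ages. Aged mice were high at ZT4 and ZT16 with a trough at ZT8 and ZT12 between them, while young mice were highest at ZT16 and ZT8, with a lower mean at ZT12 (8.87 ± 0.39, SD, n = 4). At ZT0 the log2 levels were 6.66, 6.16, 8.06 and 6.94 in aged mice, against 5.84, 6.16, 6.44 and 5.70 in young mice. By ZT4 aged mice had 10.42, 9.82, 9.36 and 8.30, against 8.47, 8.03, 8.17 and 8.11 in young mice. Aged values at ZT4 thus lay above young ones except for 1 mouse, which fell within the young range. Levels at ZT8 were 7.21, 7.07, 7.07 and 9.18 in aged mice, against 9.59, 9.84, 9.28 and 9.22 in young mice. Every aged mouse was below every young mouse there, but the fourth aged mouse was almost level with the lowest young one. At ZT12 Fkbp5 was at 8.16, 7.57, 7.71 and 8.07 in aged mice, against 9.39, 8.55, 8.61 and 8.94 in young mice, again without overlap. The young mice at ZT12 also lay below all young mice at ZT16. The ages overlapped at ZT16, with 9.51, 9.76, 9.95 and 9.77 in aged mice, against 10.11, 9.84, 9.71 and 10.17 in young mice. They also overlapped at ZT20, with 8.74, 9.70, 8.31 and 7.22 in aged mice, against 7.80, 8.38, 8.68 and 8.50 in young mice.

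**Figure D1:**
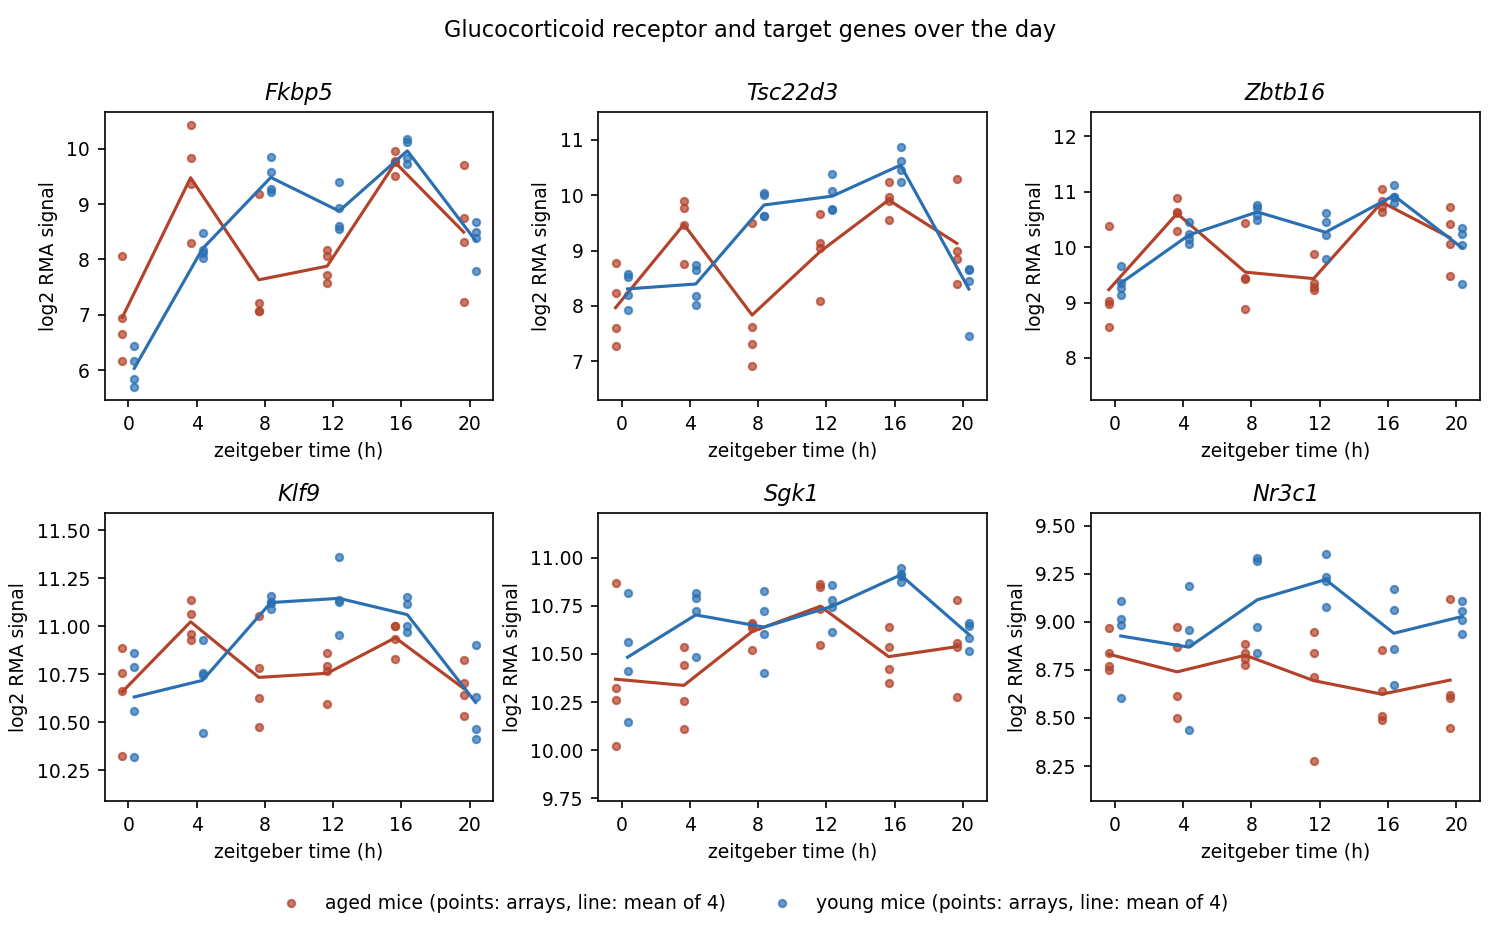
Log2 signal of the 6 genes (vertical axis) at 6 zeitgeber times (horizontal axis, hours), with 1 point per array and lines through the means of 4 mice, aged in red and young in blue. The top row spans a wider log2 scale than the bottom row; Fkbp5 in aged mice peaks at ZT4 (9.47) and ZT16 (9.75), with 7.63 at ZT8, where young mice average 9.48.

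The difference in Fkbp5 between the ages changed sign over the day. It was 1.28 ± 0.39 (aged minus young, log2, SE of the limma fit; 2.43-fold higher in aged mice) at ZT4 with an adjusted p of 0.0344, and -1.85 ± 0.39 (3.60-fold lower in aged mice) at ZT8 with an adjusted p of 0.00521. Averaged over the 6 times it was -0.12, with a 95% interval from -0.44 to 0.21. The limma F test of whether the course over the day differed between the ages gave an adjusted p of 0.00186. From its lowest to its highest time mean Fkbp5 spanned 2.79 (6.92-fold) in aged mice, rank 3 of the 12823 genes, and 3.92 (15.2-fold) in young mice, rank 1. The ZT4 difference lost its call when any of aged ZT4 replicates 1, 2 or 3 or young ZT4 replicates 2, 3 or 4 was left out, with adjusted p values of 0.0516 to 0.182 and values of 0.97 to 1.32. The ZT8 difference kept its call without any 1 array, and without the high aged mouse it was -2.36 (adjusted p = 9.46e-05). RNA of whole cell preparations was measured, so a smaller share of cells of a type and less RNA per cell cannot be told apart. The second Fkbp5 probe set (mean log2 8.03) gave 1.47 at ZT4 and -1.81 at ZT8, with adjusted p values of 0.0186 and 0.00958; the other, dim one (3.43) gave 0.08 and 0.10 and passed at neither time.

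Tsc22d3 shared part of the course of Fkbp5. In aged mice its highest means were also at ZT16 and ZT4, but its lowest was at ZT8, with 8.98 at ZT12. In young mice its mean rose from ZT8 through ZT12 to ZT16, without the lower ZT12 mean of Fkbp5. At ZT8 Tsc22d3 was at 7.31, 7.61, 6.92 and 9.50 in aged mice, against 9.62, 10.01, 9.62 and 10.04 in young mice. At ZT4 it was at 9.89, 9.46, 9.76 and 8.77 in aged mice, against 8.19, 8.01, 8.73 and 8.65 in young mice. The ages did not overlap at either time, and aged mice were higher at ZT4 and lower at ZT8. Values at ZT12 were 9.66, 9.04, 8.10 and 9.14 in aged mice, against 10.38, 9.72, 9.74 and 10.08 in young mice. In both ages the highest mean was at ZT16, with 9.91 ± 0.28 in aged mice and 10.54 ± 0.27 in young mice (SD, n = 4 each). The means at ZT0 were 7.97 ± 0.67 in aged mice and 8.31 ± 0.30 in young mice, and those at ZT20 were 9.13 ± 0.81 in aged mice and 8.31 ± 0.57 in young mice (SD, n = 4 each). At ZT8 Tsc22d3 was lower by 1.98 ± 0.38 in aged mice (3.96-fold lower; limma adjusted p = 0.00141), and at ZT4 the difference was 1.07 ± 0.38 (adjusted p = 0.0720), which missed the threshold but passed without aged ZT4 replicate 4 or aged ZT8 replicate 4 (0.0391 and 0.0275). Its course differed between the ages (limma F test, adjusted p = 0.00152). The ZT8 difference was past the threshold without any 1 array, with values of -2.54 to -1.68. Both other probe sets passed at ZT8, with -1.82 and -0.59, and the second one also passed at ZT4 with 1.40 (adjusted p = 0.0186).

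Zbtb16 fell at ZT8 in aged mice, by a smaller amount than Fkbp5 and Tsc22d3. At this time it was at 9.42, 9.44, 8.89 and 10.44 in aged mice, against 10.71, 10.49, 10.75 and 10.59 in young mice. The difference was -1.09 ± 0.27 (2.12-fold lower in aged mice; limma adjusted p = 0.0186), and the ages did not overlap. At ZT12 the values were 9.22, 9.34, 9.29 and 9.87 in aged mice, against 10.62, 9.78, 10.45 and 10.21 in young mice, a difference of -0.84 ± 0.27 (adjusted p = 0.117). Its highest time was ZT16 at both ages, with 10.81 ± 0.18 in aged mice and 10.93 ± 0.13 in young mice (SD, n = 4 each), and its lowest was ZT0, with 9.23 ± 0.79 in aged mice and 9.35 ± 0.22 in young mice. At ZT4 aged mice averaged 10.61 ± 0.24 and young mice 10.22 ± 0.17. The F test of a different course missed the threshold (adjusted p = 0.0626) but passed in 6 of the 48 fits that left out 1 array each, with the lowest adjusted p, 0.0115, without aged ZT8 replicate 4, while the other probe set passed it (0.0148) and also passed at ZT8 with -1.19. The ZT8 call was lost without aged ZT8 replicate 1, 2 or 3 or young ZT8 replicate 1 or 3, with adjusted p values of 0.0504 to 0.145 and values of -1.06 to -0.87. It held with -1.38 when aged ZT8 replicate 4, the high mouse, was left out.

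Klf9 had age differences of the same sign as Fkbp5 at ZT4, ZT8 and ZT12, but far smaller ones. At ZT8 its levels were 10.63, 10.78, 10.47 and 11.05 in aged mice, against 11.12, 11.09, 11.16 and 11.13 in young mice. At ZT12 they were 10.60, 10.77, 10.80 and 10.86 in aged mice, against 11.13, 10.96, 11.14 and 11.36 in young mice. At ZT4 Klf9 was at 11.07, 10.93, 11.14 and 10.96 in aged mice, against 10.44, 10.75, 10.76 and 10.93 in young mice. At none of these 3 times did the ages overlap, although the lowest aged and the highest young mouse at ZT4 both rounded to 10.93. The differences were 0.30 ± 0.12 at ZT4, -0.39 ± 0.12 at ZT8 and -0.39 ± 0.12 at ZT12, with limma adjusted p values of 0.118, 0.0823 and 0.0989, all short of the threshold. Without aged ZT8 replicate 4 the ZT8 difference was -0.50 and passed (0.0200). The F test of a different course passed with an adjusted p of 0.0409, but it held in only 25 of the 48 fits that left out 1 array each, where the highest adjusted p was 0.0781 without aged ZT4 replicate 3. In none of the other 4 Klf9 probe sets did this test pass (adjusted p of 0.0526 to 0.680). Of these, 2 were higher in aged mice at ZT4, by 0.50 and 0.55 (adjusted p = 0.0492 and 0.0408), and the other 2 had -0.27 and -0.08 there. Over the day the pair with negative values at ZT4 had -0.24 and -0.28 (adjusted p = 0.0329 and 0.00447), and passed, while the other pair had 0.03 and 0.11 and did not pass. The spread of the time means was 0.36 in aged mice and 0.54 in young mice, against a median over all genes of 0.29 in aged mice and 0.33 in young mice.

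Sgk1 and Nr3c1 had no variation over the 6 times past the threshold at either age in the probe sets used, and both were somewhat lower in aged mice over the whole day. Sgk1 averaged 10.52 ± 0.23 over the 24 aged mice and 10.68 ± 0.20 over the 24 young mice (SD over mice of all times). Its variation over the times passed without aged ZT0 replicate 4 in aged mice (adjusted p = 0.0148) and without young ZT0 replicate 2 in young mice (0.0403). The Sgk1 means ran from 10.34 at ZT4 to 10.75 at ZT12 in aged mice and from 10.48 at ZT0 to 10.91 at ZT16 in young mice. The aged mean was lower at 6 of 6 times, and the difference over the day was -0.17 ± 0.05 (limma adjusted p = 0.0195). At ZT8 and ZT12, however, the ages were almost level, with differences of -0.02 and -0.0004. The widest gap was at ZT16, with 10.54, 10.42, 10.64 and 10.35 in aged mice, against 10.92, 10.91, 10.94 and 10.88 in young mice. The ages did not overlap there, and the difference of -0.43 ± 0.13 had an adjusted p of 0.0569. It passed without aged ZT0 replicate 3 or 4, aged ZT12 replicate 1, aged ZT20 replicate 4, young ZT0 replicate 2 or 3, or young ZT4 replicate 1, with adjusted p values of 0.0243 to 0.0499. No second Sgk1 probe set was on the list, so its values have no such check. The Sgk1 difference at ZT4 was -0.37 (adjusted p = 0.0708), opposite in sign to that of Fkbp5, and passed without aged ZT0 replicate 4 or young ZT4 replicate 1 (0.0350 and 0.0434).

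Nr3c1, the receptor itself, averaged 8.74 ± 0.20 in aged mice and 9.02 ± 0.23 in young mice (SD, n = 24 mice of all times each). The aged mean was again lower at 6 of 6 times. Over the day the difference was -0.28 ± 0.06 (1.21-fold lower in aged mice; limma adjusted p = 4.95e-04), and it held without any 1 array. At ZT12 the levels were 8.71, 8.28, 8.84 and 8.95 in aged mice, against 9.23, 9.08, 9.22 and 9.36 in young mice. That difference of -0.53 ± 0.15 had an adjusted p of 0.0572 and was the 1 time at which the ages did not overlap. It passed without aged ZT12 replicate 4, aged ZT20 replicate 4, young ZT0 replicate 2 or young ZT4 replicate 1, with adjusted p values of 0.0321 to 0.0461. The other 4 Nr3c1 probe sets did not repeat the lower level. For the variation over the 6 times, 1 of them passed in aged mice, with a span of the time means of 0.52 (adjusted p = 0.0142) against 0.21 in the probe set used, and another passed in young mice with 0.43 (0.0404). Their differences over the day were negative but ran only from -0.09 to -0.01, and none passed.

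**Figure D2:**
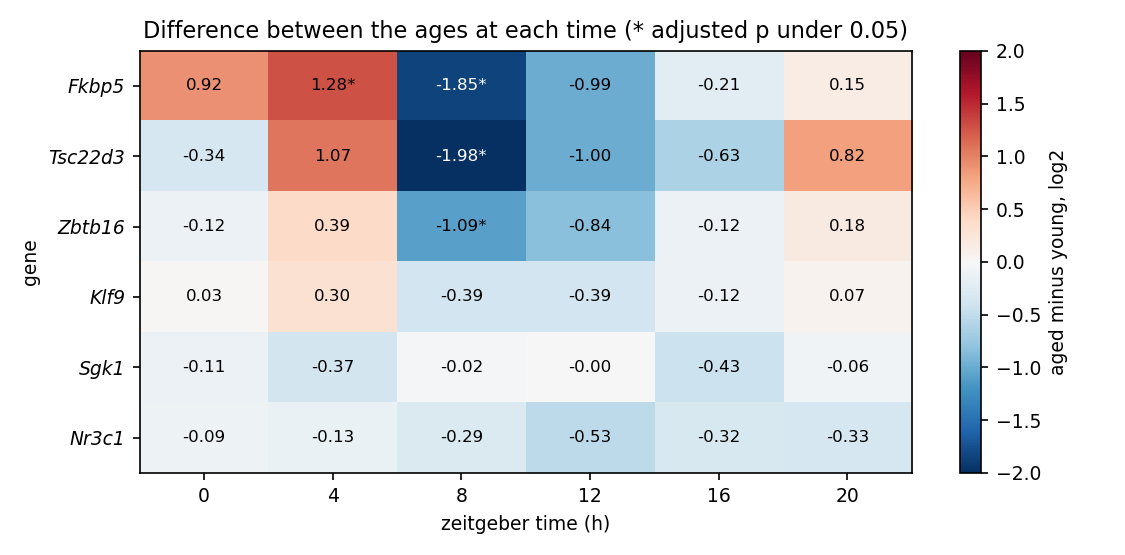
Aged minus young difference (log2, colour and number) of each gene (rows) at each zeitgeber time (columns, hours), with stars where the limma adjusted p is under 0.05. Fkbp5 is higher in aged mice at ZT4 (1.28), and Fkbp5, Tsc22d3 and Zbtb16 are lower at ZT8 (-1.85, -1.98 and -1.09).

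Counted over the 6 genes, the calls of an age difference were most frequent at ZT8, where 3 were lower in aged mice and 0 higher, against 0.359% of all tested genes lower and 1.79% higher. At ZT4, 1 was higher and 0 lower, against 3.84% and 4.37% of all genes. The median difference of the 6 genes was 0.35 at ZT4 and -0.74 at ZT8, against -0.02 and 0.03 over all tested genes. At ZT12 it was -0.68, close to that at ZT8, against -0.0024 over all tested genes. At ZT0 limma called 0 of the 6 (2.73% of all genes higher, 2.46% lower), with 1 at an unadjusted p under 0.05. At ZT12 it called 0 (0.819% higher, 0.491% lower), with 5 at an unadjusted p under 0.05, all lower in aged mice. It also called 0 at ZT16 (1.83% higher, 1.47% lower) and 0 at ZT20 (0.99% higher, 0.367% lower), with 2 unadjusted at each. With array weights in limma the count was 0 at ZT0, ZT12 and ZT20 and 1, Sgk1, at ZT16. Over the day 2 were lower, Nr3c1 and Sgk1, and 0 higher, against 10.3% lower and 11.4% higher. Without aged ZT8 replicate 4 or aged ZT20 replicate 2, Tsc22d3 and Zbtb16 were also lower over the day (adjusted p of 0.0138 to 0.0460), and Zbtb16 was without aged ZT0 replicate 3 or young ZT20 replicate 1 (0.0110 and 0.0398). The ages did not overlap for 2 of the 6 genes at ZT4, for 4 at ZT8, for 4 at ZT12 and for 1 at ZT16, against 14.5%, 10%, 6.39% and 12.1% of all tested genes. At ZT0 and ZT20 this held for 0 of the 6, against 5.68% and 6.53% of all genes. Of the cell type markers tested, limma called 0 different between the ages at ZT8, against 1.79% of all tested genes higher and 0.359% lower. Among the markers 6 had an unadjusted p under 0.05. Of these, 3 were hair follicle bulge genes with negative differences, Postn (-0.79), Lhx2 (-0.54) and Sox9 (-0.37), and the others were Krt15, Tie1 and Pmel. Sox9 was higher in aged mice at ZT4 by 0.58 (adjusted p = 0.0399) and its course differed between the ages (0.00804). From ZT4 to ZT8 it changed sign as Fkbp5 did, but at ZT20 it had -0.61 where Fkbp5 had 0.15. No other tested bulge gene was positive at ZT4 and negative at ZT8. At ZT4 Postn had -0.53, Lhx2 -0.39 and Fgf18 -0.21. At ZT8 Fgf18 had 0.33, Tcf7l1 0.21, Dkk3 0.10 and Nfatc1 0.02. The mean of the bulge list at ZT8 was 5.93 ± 0.20 in aged mice and 5.98 ± 0.09 in young mice (SD, n = 4 each). Suprabasal keratinocyte genes were at 8.58 ± 0.14 in aged mice and 8.57 ± 0.17 in young mice there, and T cell genes at 4.68 ± 0.08 in aged mice and 4.64 ± 0.06 in young mice (SD, n = 4 each). At ZT4 the T cell list stood at 4.94 ± 0.28 in aged mice, against 4.67 ± 0.12 in young mice. In it 2 of 7 tested genes were called higher in aged mice, against 3.84% of all tested genes. They were Cd3e by 1.24 and Cd3g by 0.74 (limma adjusted p = 1.47e-04 and 0.00541). The others were not called: Cd2 had 0.17, Cd247 -0.03, Cd3d -0.06, Il2rb -0.08 and Ccr10 -0.21. Cd3e was dim, with a mean log2 of 4.21. Cd3e also had a course called different between the ages (0.0478) and a 12 h component in aged mice of 0.50 with a peak at 3.85 h (0.00120). No other T cell gene had a course called different. These marker genes were named after their values were seen. The part of T cells and bulge cells in the differences of the 6 genes was not tested. A fit used scores of 5 cell type lists as covariates, the bulge list among them but not T cells. Its bulge score averages genes that moved in opposite directions, so this fit cannot decide the part of bulge cells. In it Fkbp5 was at 1.22 at ZT4 and -1.58 at ZT8, and Tsc22d3 at -1.91 at ZT8, all past the threshold. The F test of a different course lost its call for Klf9 there (adjusted p = 0.0755).

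A different course over the day was called for 3 of the 6 genes, Fkbp5, Tsc22d3 and Klf9, against 2.59% of all tested genes. Within aged mice the 6 times differed for 3 genes, Fkbp5, Tsc22d3 and Zbtb16, against 8.36% of all genes (limma adjusted p of 1.25e-05, 4.48e-04 and 8.48e-05). Within young mice they differed for 4 genes, these 3 and Klf9, against 17.5% of all genes. Young Klf9 had an adjusted p of 3.73e-04 in that test, and aged Klf9 0.134. Zbtb16 spanned 1.58 from its lowest to its highest time mean in both aged and young mice, ranks 41 and 59 of all genes. Tsc22d3 spanned 2.07 in aged mice (rank 8) and 2.23 in young mice (rank 10). When the 6 times were put in order of their means, neighbouring aged groups overlapped for all 6 genes. In young mice neighbours were apart for Fkbp5 between ZT4 and ZT0, for Tsc22d3 between ZT8 and ZT4, for Zbtb16 between ZT16 and ZT8, for Klf9 between ZT16 and ZT4 and for Sgk1 between ZT16 and ZT12.

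A single 24 h wave was called in young mice for some of the 6 genes but not for all. In young mice the 24 h cosine passed for 3 of the 6 genes, against 6.27% of all genes. They were Fkbp5, Tsc22d3 and Klf9, joined by Zbtb16 without young ZT12 replicate 2 (adjusted p = 0.0471), and the Klf9 wave had an amplitude of 0.32 ± 0.06 (log2, mean to peak, SE) and a peak at ZT11.4 (limma adjusted p = 4.63e-04). In aged mice it passed for 0 genes, against 1.36% of all genes, with 2 at an unadjusted p under 0.05 and 1, Tsc22d3, past the threshold with array weights (adjusted p = 0.0423). The aged amplitude of Klf9 was 0.05 ± 0.06. The test of the difference between the ages called 0 of the 6 genes and 0% of all genes, with 3 of the 6 at an unadjusted p under 0.05 (Fkbp5, Tsc22d3 and Klf9). It tested amplitude and peak time jointly, in a fit of the 24 h wave alone, where other variation over the day adds to the residual spread. A lower 24 h amplitude in aged mice was thus not established for any of the 6 genes.

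A 12 h component is a second wave with 2 peaks a day, fitted beside the 24 h wave. It was chosen with earlier results of these data known, because a 24 h cosine does not describe courses with 2 highs a day. Its passing in aged mice is therefore no independent test of the 2 highs seen there. It passed in aged mice for 3 of the 6 genes, against 5.78% of all genes. Its amplitude in aged mice was 1.30 ± 0.17 for Fkbp5, 0.81 ± 0.18 for Tsc22d3 and 0.80 ± 0.11 for Zbtb16 (log2, SE; limma adjusted p of 6.18e-06, 0.0112 and 2.68e-05). The peaks of this component came 4.56, 4.01 and 4.74 h after ZT0 and again 12 h later. Klf9 in aged mice had 0.18 ± 0.05 with a peak at 3.99 h and an adjusted p of 0.0503. It passed under 7 of 13 other settings, with values of up to 0.31 for the next probe set and an adjusted p as low as 0.00159 for array weights, and in 13 of 48 fits without 1 array, with the lowest adjusted p, 0.0231, without aged ZT8 replicate 4. In young mice it passed for 2 of the 6 genes, against 4.3% of all genes. These were Fkbp5 with 1.03 ± 0.17 and a peak at 5.82 h (adjusted p = 2.72e-04) and Zbtb16 with 0.45 ± 0.11 and a peak at 5.34 h (0.0308). The Zbtb16 call in young mice was lost without young ZT0 replicate 3, young ZT4 replicate 3, young ZT12 replicate 2 or 4, or young ZT16 replicate 1 or 4 (adjusted p of 0.0514 to 0.0888). Between the ages the component was called different for 0 of the 6 genes, against 2.08% of all genes, with 3 at an unadjusted p under 0.05 (Fkbp5, Sgk1 and Zbtb16). With array weights, Fkbp5 and Sgk1 passed (adjusted p = 0.00788 and 0.0113), and without aged ZT8 replicate 4 or aged ZT20 replicate 2 Fkbp5 did (0.0428 for each). With samples every 4 h, a 12 h component rests on 3 times per cycle.

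**Figure D3:**
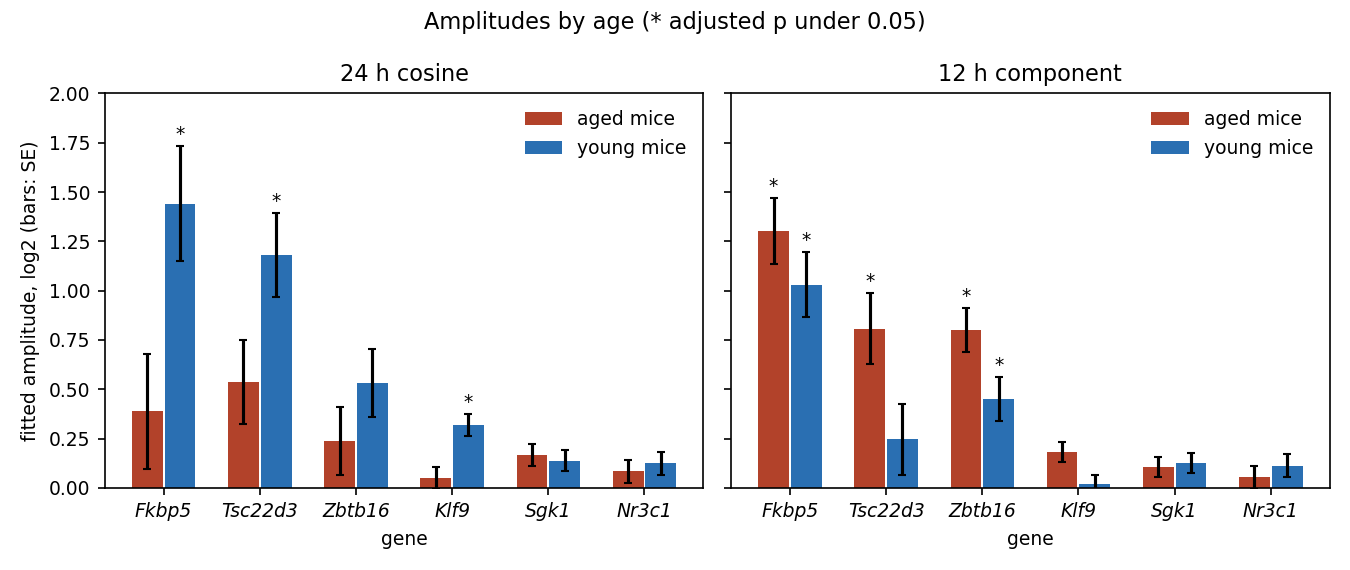
Fitted amplitude (log2, vertical axis) of the 24 h cosine (left) and the 12 h component (right) for each gene, with aged mice in red left of young mice in blue, bars of SE, and stars at a limma adjusted p under 0.05. The 24 h amplitude of Fkbp5 is 0.39 in aged and 1.44 in young mice, and its 12 h amplitude 1.30 in aged and 1.03 in young mice.

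Fkbp5, Tsc22d3, Zbtb16 and Sgk1 spread more among mice of the same age and time in the aged group at most times, a difference that was not tested. The median SD of the 6 groups of Fkbp5 was 0.85 in aged mice and 0.31 in young mice, and those of Tsc22d3 were 0.66 in aged and 0.31 in young mice. For Sgk1 they were 0.17 in aged and 0.13 in young mice. The aged SD was the larger at 4 of 6 times for Fkbp5, 6 of 6 for Tsc22d3, 5 of 6 for Zbtb16, 5 of 6 for Sgk1, 2 of 6 for Nr3c1 and 1 of 6 for Klf9. For some pairs of genes the deviations of the same aged mouse went together. Taking each array's deviation from its group mean, Fkbp5 and Zbtb16 correlated over the 24 aged mice with r = 0.816 and rho = 0.762 (permutation test within times, adjusted p over 30 pairs = 0.00600 and 0.0129), and with r = 0.742 without the 2 mice farthest from the median of Fkbp5. Likewise Tsc22d3 correlated with Fkbp5 (r = 0.780, rho = 0.705, adjusted p = 0.0143 and 0.0187), with Zbtb16 (r = 0.767, rho = 0.714, 0.00600 and 0.0129) and with Klf9 (r = 0.694, rho = 0.675, 0.0289 and 0.0187). Without the 2 farthest mice these were r = 0.625, 0.665 and 0.547. The fourth aged mouse at ZT8 was the highest of its group for all 4 of these genes. In young mice no pair passed; the strongest was Fkbp5 with Tsc22d3 (r = 0.586, rho = 0.529, adjusted p = 0.0885 and 0.0832). Whether the correlations differ between the ages was not tested. Nr3c1 and Sgk1 were in no pair that passed at either age. In aged mice Klf9 did not pass with Fkbp5 (r = 0.385, permutation test adjusted p = 0.356) or with Zbtb16 (r = 0.649, 0.107).

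**Figure D4:**
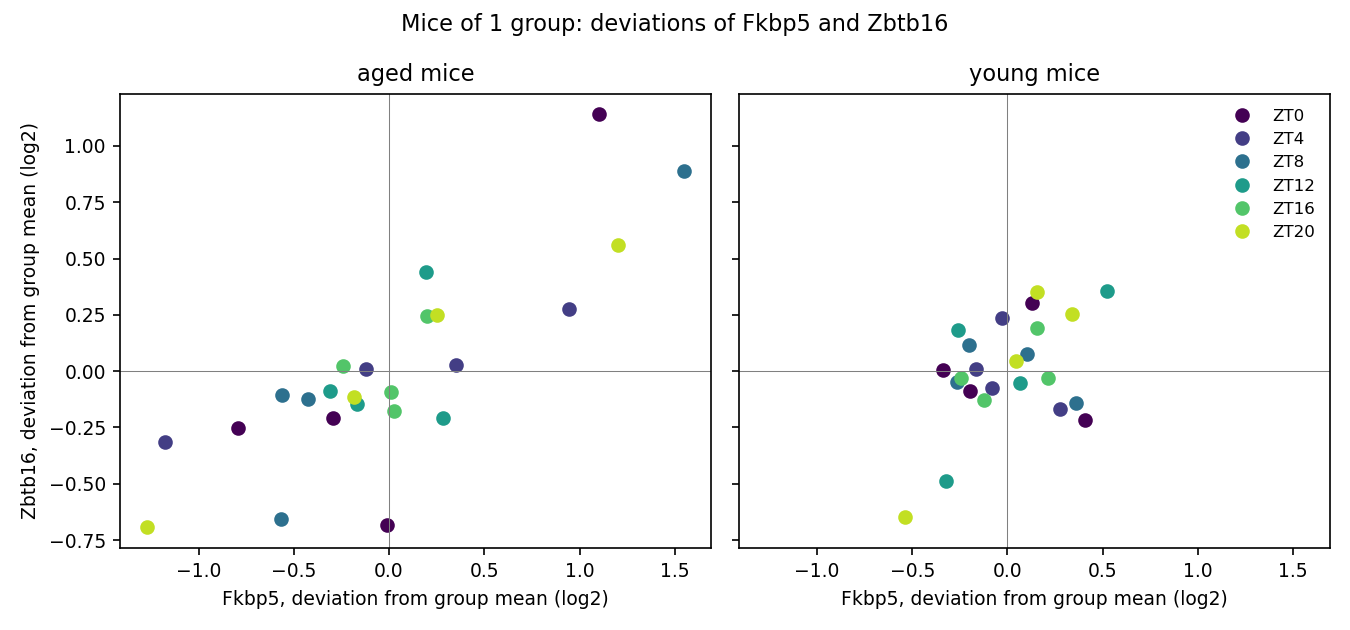
Deviation of each array from its group mean for Fkbp5 (horizontal axis, log2) and Zbtb16 (vertical axis, log2), aged mice left and young mice right, with 1 colour per zeitgeber time. The aged points run along a rising line (r = 0.816), while the young points lie close to the centre.

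Among all tested genes, those most like each member were found by Pearson's r over the 48 arrays, which share age and time groups, so that r is given as a description. Closest to Fkbp5 were Zbtb16 (r = 0.890), Kank1, Cep85, Peli2 and Spock2 (r of at least 0.830). Those closest to Tsc22d3 were Txnip (r = 0.881), Slc43a1, Kank1, Fkbp5 and Pik3r1. Klf9 was most like Peli2 (r = 0.748), Tsc22d3, Kcnj15, Per1 and Ets2. For Sgk1 the list was Tcp11l2 (r = 0.787), Jmy, Cdkn2aip, Acsl3 and Dnajb9, with no other of the 6 genes in it. Zbtb16 had Fkbp5, Peli2, Slc39a8, Cpeb3 and Kank1, and Nr3c1 had Hba-a2 (r = 0.661), Cdc42, Lamp2, Ifi30 and Sostdc1. Hba-a2 is a haemoglobin gene of red blood cells, and another, Hba-a1, varied over the times in aged mice by 1.14 (limma adjusted p = 0.00481) with a 12 h component of 0.34 (0.0430). The other red blood cell genes tested, Alas2 and Slc4a1, varied there by only 0.19 and 0.07 (limma adjusted p = 0.884 and 0.997). Neither had a called 12 h component in aged mice (0.767 and 0.982). Of the genes in these lists that are not members, Txnip, Slc43a1, Pik3r1, Kcnj15 and Cpeb3 were also lower in aged mice at ZT8. Their differences were -1.24, -1.49, -0.76, -0.88 and -0.78 (limma adjusted p of 2.37e-04 to 0.0405), where 0.359% of all tested genes were called lower. These genes were picked for following the members over the same arrays, those of ZT8 among them. Their lower level at ZT8 is therefore no independent result.

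The other known glucocorticoid-induced genes were called at different times and in both directions. Of 24 listed, 21 were tested. At ZT8 only Txnip, an inhibitor of thioredoxin, was called, lower by 1.24 in aged mice. At ZT4, 4 were higher in aged mice and 0 lower: Lcn2 (1.47), an iron-binding secreted protein, Pdk4 (1.36), a kinase that restrains pyruvate use, Per1 (0.88), a clock repressor, and Errfi1 (0.67), an inhibitor of EGF receptor signalling. At ZT16, 5 were lower and 0 higher, among them Ddit4 (-1.08), an inhibitor of mTORC1, Angptl4 (-1.03), an inhibitor of lipoprotein lipase, Mertk (-0.77), a receptor kinase, and Cdkn1c (-0.70), a cell cycle inhibitor. At ZT20 Pdk4 (1.68) and Angptl4 (1.25) were higher. Txnip (-0.88) and Cebpd (-0.82), a transcription factor, were lower at ZT12, and Ddit4 (-1.09) and Cdkn1c (-0.62) at ZT0. Over all tested genes, 3.84% were called higher and 4.37% lower at ZT4, and 1.83% and 1.47% at ZT16. These shares were 1.79% and 0.359% at ZT8, and 0.99% and 0.367% at ZT20. They were 0.819% and 0.491% at ZT12, and 2.73% and 2.46% at ZT0. The median difference of the 21 was 0.13 at ZT4 and -0.09 at ZT8, against -0.02 and 0.03 over all tested genes. Over the day 2 of the 21 were higher and 7 lower, against 11.4% and 10.3% of all tested genes. A different course was called for 6 of the 21, against 2.59% of all genes (most clearly Pdk4, Angptl4, Txnip and Per1, with limma adjusted p of 3.38e-04 to 0.0230). Txnip was at 10.63 ± 0.49 in aged mice and 11.86 ± 0.12 in young mice at ZT8 (SD, n = 4 each).

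**Figure D5:**
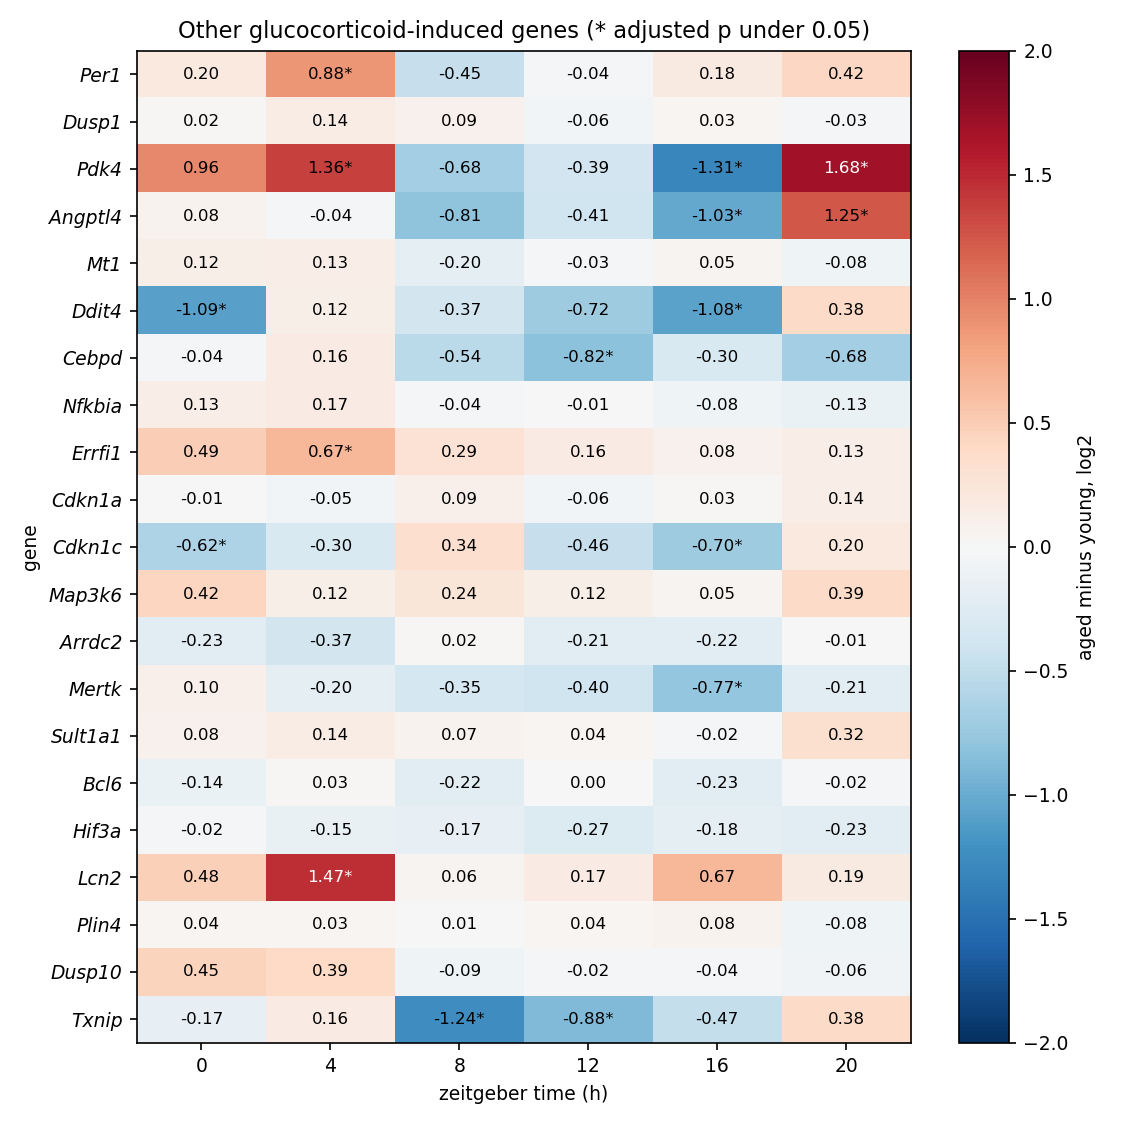
Aged minus young difference (log2, colour and number) of 21 other glucocorticoid-induced genes (rows) at each zeitgeber time (columns, hours), with stars where the limma adjusted p is under 0.05. Calls lie on 10 of the rows and in both directions; at ZT8 Txnip (-1.24) is the 1 gene called.

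Genes for proteins that carry or work with the receptor showed few RNA differences at single times. Of 23 listed genes for the mineralocorticoid receptor, chaperones, cofactors and steroid enzymes, 17 were measured and 14 tested. At ZT4 Ncoa1, a coactivator, was higher in aged mice by 0.40 (limma adjusted p = 0.0262), and at the other 5 times 0 of the 14 were called by limma, with 0 to 5 at an unadjusted p under 0.05. Of all tested genes 3.84% were called higher at ZT4. At the other 5 times 0.819% to 2.73% were called higher and 0.359% to 2.46% lower. Over the day Nr3c2, the mineralocorticoid receptor, was higher by 0.19 and Ncoa1 by 0.15, and Hspa8, a chaperone, was lower by 0.09. For comparison, 11.4% of all tested genes were called higher over the day and 10.3% lower. For 0 of the 14 was the course called different between the ages, against 2.59% of all tested genes, with 1 of the 14 at an unadjusted p under 0.05.

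Relatives of the 6 genes, such as other Klf and Tsc22d genes, were also compared. Of 34 listed, 28 were tested. Klf2, a relative of Klf9, was higher in aged mice at ZT0 by 1.13 and at ZT4 by 1.31 (limma adjusted p = 0.0152 and 0.00287), and over the day by 0.63. Klf13 was higher at ZT4 by 0.40 and had a 12 h component of 0.24 in aged mice (adjusted p = 0.00156). At ZT8 Tsc22d4, a relative of Tsc22d3, was lower by 0.64 (adjusted p = 0.0413), while Klf3 was higher by 0.34. Tsc22d1, another relative of Tsc22d3, was higher by 0.15 over the day (adjusted p = 0.0231), whereas Tsc22d3 itself had a difference of -0.34 there (0.112). Sgk3, the relative of Sgk1, had a difference of 0.01 over the day (adjusted p = 0.946). The mineralocorticoid receptor Nr3c2 was higher in aged mice over the day, while Nr3c1 was lower in the probe set used. In the other 4 Nr3c1 probe sets the difference over the day was only -0.09 to -0.01, and none passed. An opposite change of the 2 receptors thus rests on 1 Nr3c1 probe set. Over the day 9 of the 28 relatives were higher and 5 lower, against 11.4% and 10.3% of all tested genes. The course was called different between the ages for 0 of the 28, against 2.59% of all genes, with 3 of the 28 at an unadjusted p under 0.05. Immediate early genes, which respond to handling and stress, were called higher in aged mice for 2 of 14 at ZT4 (Egr2 and Egr3) and 0 of 14 at ZT8, where 3 had an unadjusted p under 0.05. Heat shock genes were called for 0 of 8 at both times, with 2 at ZT4 and 0 at ZT8 at an unadjusted p under 0.05. Over all tested genes 3.84% were called higher and 4.37% lower at ZT4, and 1.79% and 0.359% at ZT8.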

How the data were processed

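The submitters deposited 1 value per probe set and array, a log2 signal made with RMA (background correction, normalization between arrays and summary of probes), per the submitters' processing notes. The sources used here give neither the RMA version nor whether all 48 arrays were normalized together. Of 45141 probe sets, 28898 carry 1 gene symbol in the platform annotation. The probe set with the highest mean stood for each of 17097 genes, and genes in the lowest 25% of mean log2 were left out. For the remaining 12823 genes, 12 group means, or cosine terms of 24 h and 12 h per age, were estimated by lmFit and eBayes of limma 3.58.1 (R 4.3.3). P-values were adjusted over these genes by Benjamini-Hochberg at a threshold of 0.05. Deviations were correlated with permutation tests within times. Besides the members, the genes named are up to 4 called genes of smallest p per list and comparison, the 5 genes of highest r per member and the closest relatives. The members, the lists and the 12 h component were chosen with earlier results of these data known. The procedure was tested on simulated data. Replicates are separate mice, and their number limits the precision of arrays. Dim genes, array scaling, probe set choice, array weights, moderation, replicate numbers, cell type scores and single arrays were varied.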

Additional observations from a re-analysis of the deposited data

Results flagged for a closer look

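Fkbp5 in aged mice at ZT8 had 1 value far from the others of its group. Replicate 4 was at 9.18 while the other 3 mice lay between 7.07 and 7.21, and this gap made up 0.934 of the group's range. It was 1 of 72 groups of 4 mice that were looked at in this way, and chance marks about 1 in 20 groups. In the same mouse Tsc22d3 (9.50), Zbtb16 (10.44) and Klf9 (11.05) were also the highest of their group, and the age differences at ZT8 were larger without it.

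The daily course differed between the ages by the limma F test of the interaction for Fkbp5 (adjusted p = 0.00186), Tsc22d3 (adjusted p = 0.00152) and Klf9 (adjusted p = 0.0409). The first pair kept this call under all 12 other settings and without any 1 of the 48 arrays, while Klf9 kept it under 7 of 12 settings.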

How the results depend on the processing

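The lower levels of Fkbp5 and Tsc22d3 in aged mice at ZT8 passed under all 12 other settings and in all 48 fits without 1 array. Their course differences and the aged 12 h components of Fkbp5, Tsc22d3 and Zbtb16 did as well (13 settings for the components), and no called value changed sign. Nr3c1 over the day lost its call with the next probe set (-0.09, adjusted p = 0.150), and Klf9 lost the call of its course under 5 of 12 settings, with adjusted p up to 0.180. The causes were not tested. Counts of members called moved as follows. At ZT4, against 1, they were 3 with array weights and with the next probe set, and 2 when a gene's probe sets were averaged and without the 4 arrays of lowest weight. At ZT12, against 0, they were 1 with cyclic loess, with the replicate block (Nr3c1, -0.53, adjusted p = 0.0449) and without the 4 arrays of lowest weight. At ZT16, against 0, they were 1 with array weights, trended robust eBayes, the lowest 50% left out, averaged probe sets and the 4 arrays left out. Over the day, against 2, they were 4 with array weights and 1 with the next probe set. In aged mice array weights gave 1 for the 24 h cosine, against 0. For the variation over times array weights and the next probe set gave 5, against 3, and for the 12 h component the next probe set gave 5, against 3. Array weights called 2 for the 12 h difference, against 0. Leaving out both aged ZT8 replicate 4 and aged ZT0 replicate 3, chosen after seeing the data, gave 2 at ZT4, 1 at ZT12, 1 at ZT16, 4 over the day and 1 for the 12 h difference. Leaving out each array in turn gave 0 to 2 at ZT4, 2 to 4 at ZT8, 0 to 1 at ZT12 and ZT16, 0 to 0 at ZT0 and ZT20, 2 to 4 over the day and 2 to 4 for the course. It gave 3 to 4 for the aged and 4 to 5 for the young variation over times, 0 to 0 for the aged 24 h cosine, 3 to 4 for the young one and 0 to 0 for their difference. For the 12 h component it gave 3 to 4 in aged mice, 1 to 2 in young mice and 0 to 1 for the difference. Replicate numbers were not treated as pairs, and the labels give no pairing. Deviations of aged and young arrays of the same time and number correlated from -0.365 to 0.440, with 11 of 24 pairs over 0.1. Between arrays of different groups the mean correlation was -0.0007 with the same number and 0.0009 with different numbers. With the replicate block 2 members had a different course, against 3 (Klf9, adjusted p = 0.0545). Counts over all 12823 genes moved as well. Array weights called 1884 at ZT4, against 1053, 1128 at ZT8 (275), 356 at ZT12 (168), 1569 at ZT16 (423), 331 at ZT20 (174), 864 for the course (332), 2257 and 3855 for the aged and young variation (1072 and 2242), and 4 for the 24 h difference (0). They gave 606 and 2327 for the aged and young 24 h cosine (174 and 804), and 2332, 1615 and 1105 for the aged, young and different 12 h component (741, 552 and 267). Without the 4 arrays of lowest weight there were 367 at ZT0 (665), 354 at ZT12, 722 at ZT16, 423 at ZT8, 540 for the course, 2113 for the aged variation, 438 for the aged 24 h cosine, and 1177 and 434 for the aged and different 12 h component. Cell type scores gave 102 at ZT12, 1641 for the young 24 h cosine and 207 for the course. Leaving out the 2 aged arrays gave 268 at ZT0 and 104 for the aged 24 h cosine.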
